A study of Mus musculus with 12 samples.

Results

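The myelin genes are a set of 9 genes whose products build or maintain the myelin sheath: Mbp, Mobp, Mag, Mog, Cnp, Cldn11, Fa2h, Ermn and Bcas1. They were chosen by gene name, and each was found once among the 55862 genes of the expression table. Their levels are described in 12 mouse brain samples from 4 groups of 3 samples. The study asked what happens to astrocytes grown as spheres, and used neural precursor preparations from brain as positive controls.

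The labels give C57BL/6 for all samples, and the study's methods give C57BL/6J for the mice of both suspensions. AST samples were primary astrocytes from the cerebral cortex of newborn pups, grown as a monolayer in medium with serum and labelled 0 day incubation, negative control. A-iSC samples were the same kind of astrocytes after 5 days as spheres on agarose, labelled 5 day incubation. For P56-NPC the subependymal zone of adult mice was dissected and dissociated into single cells. For P0-NPC the hippocampus was dissected at postnatal day 0 and dissociated into single cells by a different protocol. Both suspensions are labelled positive controls, and no sorting step is described for either, so each can hold every cell type of the dissected tissue. Age, brain region, preparation and culture differ together between the P56-NPC, P0-NPC and cultured groups and cannot be told apart. The study's methods speak of independent experiments in general, but neither they nor the labels tie the sequenced samples of a group to separate animals or cultures, so the p-values measure the spread between these samples, which may be technical.

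Myelin is the stack of lipid-rich membrane that oligodendrocytes wrap around axons of the central nervous system. Its cytoplasmic faces are held together by basic proteins of compact myelin, its inner and outer layers carry adhesion proteins, and its lipids include sphingolipids with hydroxylated fatty acids. Oligodendrocytes arise from precursor cells through a committed stage, and in the mouse forebrain the myelin genes are switched on mostly after birth, as cells mature. Bcas1 marks oligodendrocytes that are beginning to myelinate, while Mobp, Mog and Ermn are known from mature cells.

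On GRCm38 8 of the genes lie at chr9:120149707-120181484 (Mobp), chr7:30899176-30914873 (Mag), chr17:37010743-37023398 (Mog), chr11:100574904-100591729 (Cnp), chr3:31149920-31164324 (Cldn11), chr8:111345135-111393824 (Fa2h), chr2:58045113-58052864 (Ermn) and chr2:170346991-170427845 (Bcas1). Values cover all annotated exons of a gene.

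Promoter sequences of 3 members are shown because their levels behaved differently at the low end of the data: Mobp had no fragment in any AST sample, Mag was at a trace level in all groups but P56-NPC, and Cnp was detected in every sample. Each is the RefSeq promoter sequence of build GRCm38.p6, 5′ to 3′ on the gene's strand, cut before the first base of the gene in the expression table. Capitals mark matches on either strand to a SOX factor motif (ACAAAG or ACAATG, seen as CTTTGT or CATTGT on the other strand) or to a MYRF motif (CTGGCAC or CTGGTAC, seen as GTGCCAG or GTACCAG). The motifs do not overlap each other in these stretches.
Mobp (chr9:120149492-120149706, plus strand): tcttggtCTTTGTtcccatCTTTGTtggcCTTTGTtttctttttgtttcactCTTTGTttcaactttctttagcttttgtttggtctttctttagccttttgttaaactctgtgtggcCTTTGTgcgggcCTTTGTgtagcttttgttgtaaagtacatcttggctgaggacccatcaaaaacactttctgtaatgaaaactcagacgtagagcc
Mag (chr7:30914874-30915113, minus strand): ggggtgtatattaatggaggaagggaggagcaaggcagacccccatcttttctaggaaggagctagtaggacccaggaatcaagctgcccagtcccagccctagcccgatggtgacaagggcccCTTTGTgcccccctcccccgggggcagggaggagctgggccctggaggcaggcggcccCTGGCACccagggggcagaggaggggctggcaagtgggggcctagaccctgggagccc
Cnp (chr11:100574689-100574903, plus strand): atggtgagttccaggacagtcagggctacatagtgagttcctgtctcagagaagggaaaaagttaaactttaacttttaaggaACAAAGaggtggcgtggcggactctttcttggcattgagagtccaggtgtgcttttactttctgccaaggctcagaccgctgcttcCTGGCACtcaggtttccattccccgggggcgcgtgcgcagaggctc

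The Mobp stretch held 6 SOX matches and no MYRF match, while the Mag and Cnp stretches each held 1 of either kind. Windows of 300 bases around a start site were on hand for 6 members, Mobp, Mag, Mog, Cnp, Cldn11 and Ermn, with 8 windows in all because Mag has several starts. A SOX match was present in 5 of the 8 windows, of 4 genes (all but Mog and Cldn11), and in 28.6% of 32851 windows of all genes. A MYRF match was present in 4 of the 8 windows, of Mag, Mog and Cnp, and in 7.1% of all windows. The 3 windows of Mag are neighbours and are not independent. The TATA box letters TATAAA were in no window of a member and in 13.6% of all windows. The Cldn11 window held 24 CpG pairs, against a median of 7 over all windows. Such matches are descriptions of the letters and say nothing of binding.

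Values are FPKM, fragments per kilobase of gene, scaled by the authors for the size of each library. Between 17077780 and 24452419 fragments per sample were recovered from the values, so that 3 fragments on a gene of 1 kb correspond to 0.103 to 0.187 FPKM. Mitochondrial genes took 16.54% to 17.63% of fragments in P56-NPC and 2.94% to 7.03% in the other groups. Depth therefore limits the low members and not the high ones. Of 8 astrocyte markers all reached a mean of 1 FPKM in AST. Of 8 neural precursor markers all reached it in A-iSC, P56-NPC and P0-NPC and 7 in AST, with sums of 115 to 147 FPKM in P56-NPC, 300.2 to 338 in P0-NPC, 298 to 355 in A-iSC and 371 to 393 in AST.

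**Figure D1:**
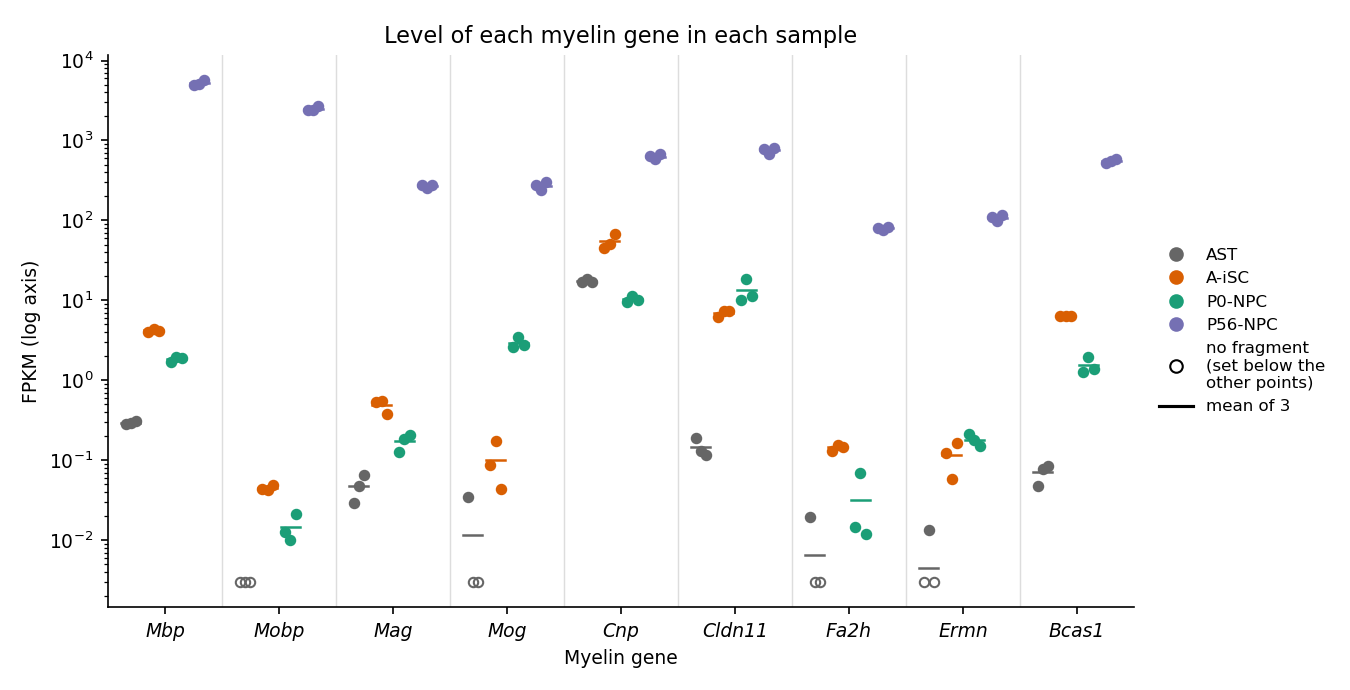
FPKM of the 9 myelin genes (x axis) on a log axis, with 1 point per sample, 4 groups of 3 samples in colour, and a line at the mean of each group; open points mark samples with no fragment and are set below the other points. The P56-NPC samples lie above all other samples for every gene, by the least for Cnp and by the most for Mobp.

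The myelin genes were highest in the P56-NPC suspension for 9 of 9 members, with no overlap with any other group. The same held for 11.3% of the 35208 genes with a fragment in any of the 12 libraries. Together they took 5.03% to 5.77% of all fragments there, compared with 0.0263% to 0.0363% in A-iSC, 0.00954% to 0.0127% in P0-NPC and 0.00636% to 0.00667% in AST. In bulk samples, a larger number of oligodendrocytes and more myelin RNA per cell cannot be told apart. AST was the lowest group for 8 members, and the exception was Cnp, which was lowest in P0-NPC. The order P56-NPC, A-iSC, P0-NPC, AST held for 5 members (Mbp, Mobp, Mag, Fa2h and Bcas1), while P0-NPC stood above A-iSC for Mog, Cldn11 and Ermn. Neighbours in this order overlapped for 2 members, P0-NPC with AST for Fa2h and P0-NPC with A-iSC for Ermn. Within P56-NPC, all 9 genes had their highest value in replicate 3, and 7 had their lowest in replicate 2.

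Mbp (chr18:82475146-82585637, GRCm38) encodes myelin basic protein, which holds the cytoplasmic faces of the sheath together. Its level adds all transcripts of the locus, including the Golli forms that other cell types use. Mbp stood at 0.282, 0.291 and 0.312 FPKM in AST, from 40 to 50 fragments. In A-iSC it stood at 4.08, 4.45 and 4.16 FPKM. The AST and A-iSC samples did not overlap. In P0-NPC it stood at 1.70, 1.95 and 1.92 FPKM. In P56-NPC it reached 4994, 5159 and 5660 FPKM, the rank of 1 among 21913 nuclear protein-coding genes, and 3.25% to 3.69% of all fragments came from this gene.

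Mobp encodes a small basic protein of compact myelin that is abundant in the adult sheath. No fragment of Mobp was counted in any AST sample. In A-iSC 6, 7 and 9 fragments were counted, and in P0-NPC 2, 2 and 4. The A-iSC counts are above those of P0-NPC, but all 6 samples are within a few fragments of the detection limit. In P56-NPC Mobp stood at 2420, 2394 and 2704 FPKM and ranked 7 among nuclear protein-coding genes. The A-iSC level of Mobp was 0.0018% of that in P56-NPC.

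Mag and Mog encode adhesion proteins of the immunoglobulin family, Mag in the innermost membrane that faces the axon and Mog on the outer surface of the sheath. Mag stood at 0.0293, 0.0484 and 0.0661 FPKM in AST, at 0.536, 0.558 and 0.385 in A-iSC, at 0.129, 0.186 and 0.205 in P0-NPC, and at 277, 257 and 279 in P56-NPC. All groups were separate for Mag, although its AST values rest on 2 to 5 fragments. For Mog 1, 0 and 0 fragments were counted in AST and 3, 7 and 2 in A-iSC. In P0-NPC Mog stood at 2.59, 3.45 and 2.75 FPKM from 101 to 171 fragments. In P56-NPC it stood at 274, 238 and 301 FPKM. P0-NPC was thus above both cultured groups for Mog, which was not so for its partner Mag.

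The gene next to Mog, Zfp57, moved with it in the P0-NPC samples. Zfp57 (chr17:37001163-37010635, plus strand, GRCm38) encodes a zinc finger protein known for keeping imprinted marks, and ends 107 bases from the end of Mog, which runs towards it on the minus strand. Zfp57 stood at 42.5, 47.4 and 41.8 FPKM in P0-NPC. Its means were 2.20 FPKM in AST, 2.25 in A-iSC and 2.49 in P56-NPC. The P56-NPC samples therefore had high Mog without high Zfp57, and the P0-NPC samples had both. On the other side of Mog, 22567 bases away, Gabbr1, a subunit of the GABA-B receptor, had means of 4.57 FPKM in AST, 11.9 in A-iSC, 36.8 in P0-NPC and 67.1 in P56-NPC. Gabbr1 was thus highest in P56-NPC, and P0-NPC was above both cultured groups, as for Mog. Whether fragments of Zfp57 reach into Mog in P0-NPC was not tested, and the strand setting of the counting is not given in the sources used here.

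**Figure D2:**
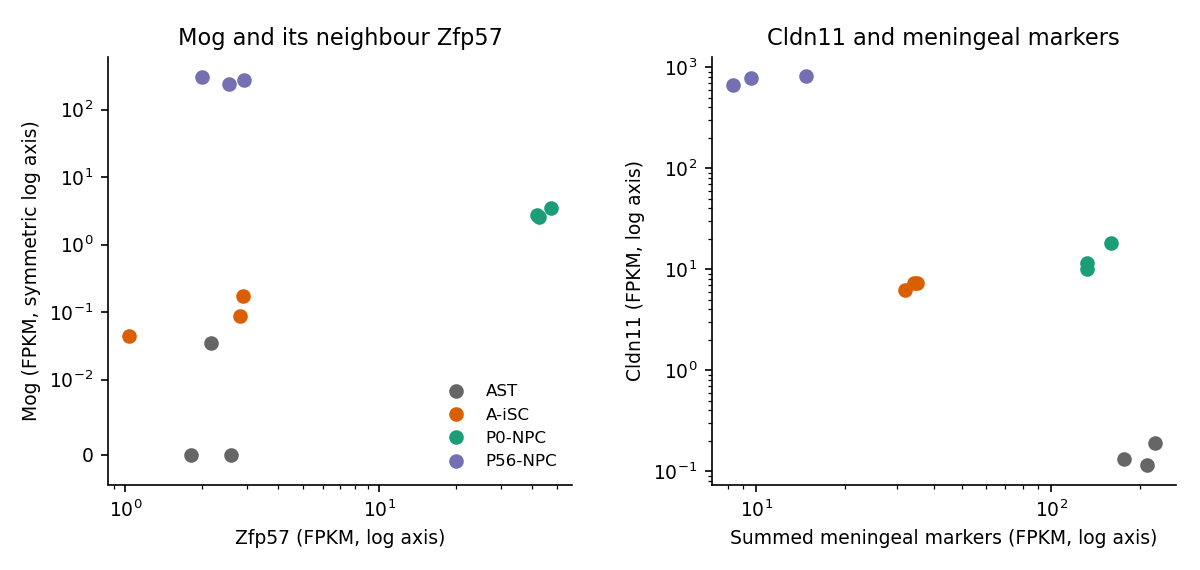
Left, Mog against its neighbour Zfp57; right, Cldn11 against the summed level of 8 meningeal fibroblast markers; axes are FPKM on log scales (symmetric log for Mog, so that 0 can be shown), and each point is 1 of 12 samples. P0-NPC samples stand apart at 41.8 to 47.4 FPKM of Zfp57, and the AST samples have the highest marker sums with the lowest Cldn11. Col1a1 alone made up most of the AST sums.

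Cnp encodes an enzyme of the cytoplasmic channels of myelin that is also found outside mature oligodendrocytes. It was the only member above 1 FPKM in every sample. Cnp stood at 16.9, 18.6 and 17.1 FPKM in AST and at 45.3, 51.4 and 67.5 in A-iSC. In P0-NPC it stood at 9.42, 11.3 and 10.2 FPKM, below every AST sample. In P56-NPC it stood at 636, 580 and 670 FPKM. One exon of Cnp is overlapped on the other strand by Dnajc7, whose means were 30.9 FPKM in AST, 32.6 in A-iSC, 32.1 in P0-NPC and 25.2 in P56-NPC, so Dnajc7 did not move the way Cnp did.

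Cldn11 encodes the claudin of the tight junctions between layers of the sheath, and it is also known in barrier cells of the meninges. It stood at 0.191, 0.132 and 0.115 FPKM in AST, from 4 to 6 fragments. In A-iSC it stood at 6.26, 7.35 and 7.34 FPKM, and in P0-NPC at 10.1, 18.3 and 11.5. P0-NPC was above A-iSC without overlap, and its replicate 2 stood apart from the other two. In P56-NPC Cldn11 stood at 775, 671 and 810 FPKM. The summed level of 8 meningeal fibroblast markers, among them Col1a1 and Aldh1a2, was 132 to 159 FPKM in P0-NPC and 31.9 to 34.9 in A-iSC. It was 177 to 225 in AST and 8.32 to 14.8 in P56-NPC. Most of the AST sum came from Col1a1 alone, with means of 158 FPKM in AST and 34.2 in P0-NPC. All 8 markers reached a mean of 1 FPKM in P0-NPC, against 5 in AST, 4 in A-iSC and 3 in P56-NPC. The part of meningeal cells in the Cldn11 level of P0-NPC was not tested.

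Fa2h encodes the hydroxylase that makes the hydroxylated fatty acids of myelin sphingolipids, and Ermn a cytoskeletal protein of late oligodendrocytes. Fa2h had 1, 0 and 0 fragments in AST, 8, 11 and 12 in A-iSC, and 1, 6 and 1 in P0-NPC. Ermn had 0, 1 and 0 fragments in AST, 9, 5 and 16 in A-iSC, and 18, 19 and 15 in P0-NPC. For both genes the A-iSC samples were above the AST samples at a trace level. In P56-NPC Fa2h stood at 81.1, 76.2 and 83.6 FPKM and Ermn at 111, 99.2 and 116, the lowest ranks of the 9 genes at 544 and 392.

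Bcas1 encodes a protein of oligodendrocytes at the onset of myelination. It stood at 0.0474, 0.0784 and 0.0856 FPKM in AST, from 3 to 6 fragments. In A-iSC it stood at 6.31, 6.37 and 6.29 FPKM, a coefficient of variation of 0.663% and the tightest of the 9 genes in that group. In P0-NPC it stood at 1.27, 1.97 and 1.38 FPKM, and in P56-NPC at 530, 554 and 581. All 4 groups were separate.

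The comparison of A-iSC with AST sets astrocytes grown as spheres against those grown as a monolayer. Form of growth and days of incubation, 5 against 0, differ together between them and cannot be told apart. All 9 myelin genes were higher in A-iSC than in AST with no overlap between samples, whereas 21.6% of the 30439 genes with a fragment in any of these 6 libraries were. For 5 of the 9 (Mobp, Mag, Mog, Fa2h and Ermn) neither group reached a mean of 1 FPKM, the level required for testing. The 4 members tested, Mbp, Cnp, Cldn11 and Bcas1, were all called higher by limma, at a background of 25.2% of all genes tested called higher and 29.6% called lower (31.9% and 20.9% with scaling to library size alone). The 4 passed the filter through their A-iSC level, or for Cnp through both groups, so their count is given as a description.

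Bcas1 was 89.8-fold higher in A-iSC than in AST (95% counting interval 53.7 to 158) and Cldn11 47.8-fold (29.4 to 86.5). On the log2(FPKM + 1) scale, which understates the change of low genes, these were differences of 2.77 ± 0.0977 (SE, adjusted p = 3.65e-06) and 2.80 ± 0.111 (adjusted p = 4.87e-06). Mbp was 14.3-fold higher, a log2 difference of 2.01 ± 0.101 (adjusted p = 8.80e-06). Cnp, the member with the highest starting level, was 3.12-fold higher, a log2 difference of 1.57 ± 0.161 (adjusted p = 0.000187). Bcas1, Cldn11 and Mbp thus started at trace levels and reached means of 4.23 to 6.99 FPKM. Among the untested members, Mag was 10.3-fold higher (5.67 to 20.3) and Mobp at least 1.90-fold higher against a floor of 3 fragments per library. Fa2h, Ermn and Mog had 1 fragment in all AST samples together, and their ratios of 24.2 (4.35 to 957), 23.2 (4.17 to 918) and 9.60 (1.72 to 379) have wide counting intervals. Intervals and floors cover counting error only.

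Markers of other cell types moved in the same comparison. The summed level of 8 microglia markers was 1333 to 1682 FPKM in A-iSC and 143 to 161 in AST, and that of 8 astrocyte markers was 1211 to 2466 in A-iSC and 143 to 161 in AST. All 8 microglia markers and 7 of the 8 astrocyte markers were called higher in A-iSC, and no marker of either list was at 0 in AST. Of the 8 microglia markers 2 were tested through A-iSC alone, their AST means being under 1 FPKM. Of 6 ependymal markers 5 were tested, and 4 were called higher (2 through A-iSC alone) and 0 lower. Of 8 meningeal fibroblast markers 5 were tested, and 4 were called lower (1 through AST alone) and 0 higher. Col1a1 was at -5.32 ± 0.165 (adjusted p = 3.54e-06). Of 6 endothelial markers 3 were tested, with 2 lower, each through AST alone. Of 8 neuron markers 4 were tested, with 1 higher, through A-iSC alone, and 1 lower. Of 8 neural precursor markers 3 were called higher (1 through A-iSC alone) and 4 lower. These counts are descriptions, beside 25.2% of all genes tested called higher and 29.6% lower. The part of these markers in the myelin gene differences was not tested.

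**Figure D3:**
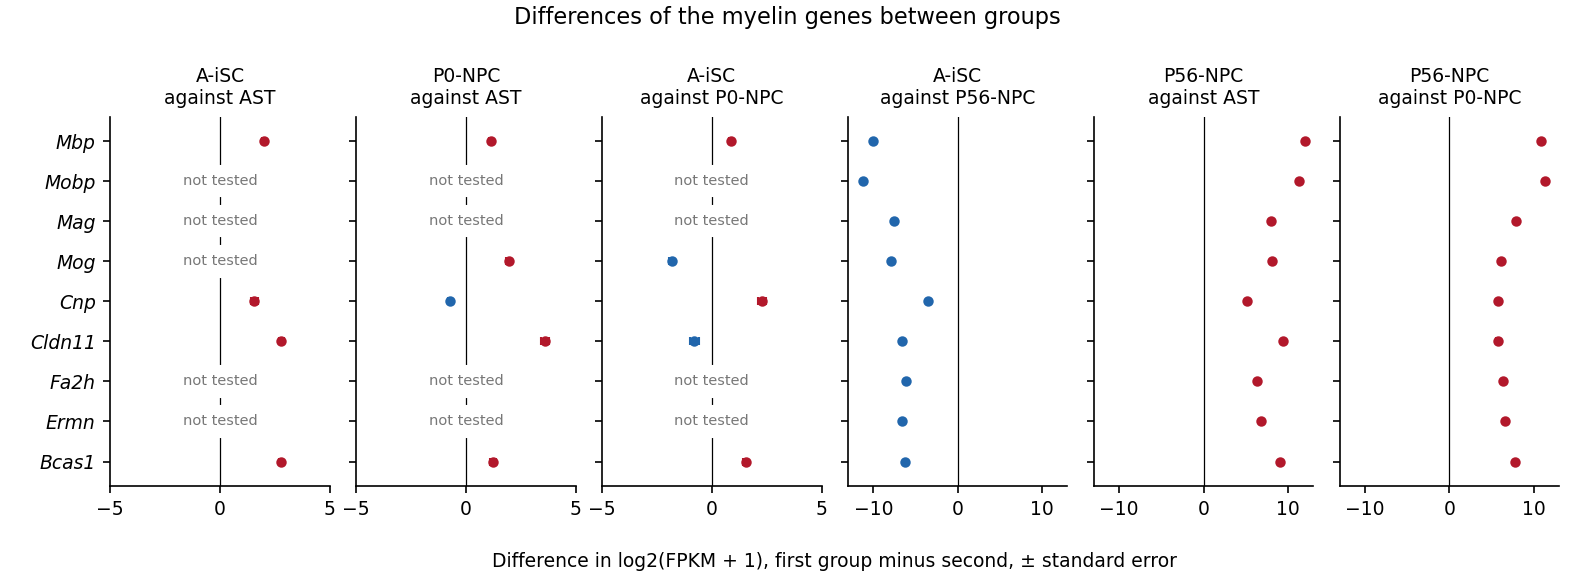
Difference in log2(FPKM + 1) of each myelin gene in 6 comparisons, first group minus second, with the standard error from limma as a bar that is often smaller than the point; the first 3 panels span 5 units to either side of 0 and the last 3 span 13. Genes under a mean of 1 FPKM in both groups are marked as not tested. All tested genes lie above 0 for A-iSC against AST, and P0-NPC against AST has Cnp alone below 0.

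P0-NPC was compared with the same AST samples. Of 5 members tested, 4 were called higher in P0-NPC and 1 lower, against 38.1% and 40.9% of all genes tested (46.3% and 31.6% with scaling to library size alone). The 4 that were higher passed the filter through their P0-NPC level, so this count is a description. Cldn11 was 91.0-fold higher (55.9 to 165), a log2 difference of 3.60 ± 0.191 (adjusted p = 1.08e-06). Mog showed a log2 difference of 1.95 ± 0.108 (adjusted p = 1.36e-06), Bcas1 of 1.24 ± 0.121 (adjusted p = 3.37e-05) and Mbp of 1.14 ± 0.0885 (adjusted p = 8.98e-06). Cnp was the member that fell, with a log2 difference of -0.72 ± 0.0906 (adjusted p = 0.000145), or 1.71-fold, and -0.45 ± 0.0873 with scaling to library size alone (adjusted p = 0.00166). With both groups set against the same AST samples, Mbp and Bcas1 had the larger difference in A-iSC, Cldn11 the larger in P0-NPC, and Cnp differed in sign.

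Markers of other cell types moved between P0-NPC and AST as well. The summed level of 8 neuron markers was 774 to 945 FPKM in P0-NPC and 88.2 to 124 in AST, with 8 of 8 called higher. For 6 endothelial markers the sums were 72.9 to 75.9 and 3.95 to 5.03, with 5 of 6 called higher, and for 6 ependymal markers they were 80.5 to 103.5 and 42.8 to 51.2, with 4 of 5 tested called higher. Of the 8 meningeal fibroblast markers 6 were called higher and 2 lower, and of 8 astrocyte markers 4 and 4. Of 8 neural precursor markers 3 were called higher and 5 lower, and of 7 microglia markers tested 2 and 3. Of those called higher, 5 neuron, 4 endothelial, 2 ependymal, 3 meningeal fibroblast, 1 neural precursor and 1 microglia marker passed the filter through P0-NPC alone. These counts are therefore descriptions, beside 38.1% of all genes tested called higher and 40.9% lower. The part of these markers in the myelin gene differences was not tested.

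These contrasts were also tested directly, A-iSC against P0-NPC. Of 5 members tested, 3 were called higher in A-iSC and 2 lower, against 31.5% and 33.6% of all genes tested. Of the 2, Mog passed the filter through its P0-NPC level alone, so this count is a description. Cnp was 5.32-fold higher in A-iSC, a log2 difference of 2.29 ± 0.161 (adjusted p = 1.20e-05). Bcas1 was 4.10-fold higher, at 1.54 ± 0.128 (adjusted p = 2.82e-05), and Mbp 2.28-fold higher, at 0.87 ± 0.102 (adjusted p = 0.000173). Mog was 28.9-fold lower in A-iSC (16.8 to 56.9), a log2 difference of -1.83 ± 0.126 (adjusted p = 1.08e-05). Cldn11 was 1.90-fold lower, at -0.80 ± 0.203 (adjusted p = 0.00929), the smallest difference of these 5. The Mog and Cldn11 differences stand beside the Zfp57 and meningeal marker levels given above. Other markers differed between these groups too. The summed level of the microglia markers was 1333 to 1682 FPKM in A-iSC and 85.3 to 99.03 in P0-NPC (8 of 8 called higher), and that of the astrocyte markers 1211 to 2466 and 238 to 303 (6 of 8 higher). The neuron markers summed to 48.6 to 66.0 in A-iSC and 774 to 945 in P0-NPC (8 of 8 lower), and the endothelial markers to 1.57 to 2.49 and 72.9 to 75.9 (5 of 6 lower). Of these markers, 4 neuron and 5 endothelial ones passed the filter through P0-NPC alone and 1 microglia marker through A-iSC alone. The marker counts are therefore descriptions too, and the part of these markers was not tested. The other 4 members were untested. Mag was 2.85-fold higher in A-iSC. Fa2h was 4.57-fold higher (2.20 to 10.03) and Mobp 3.08-fold (1.56 to 7.12), and both rest on 8 fragments in all P0-NPC samples together. Ermn was 1.58-fold higher in P0-NPC (1.09 to 2.31), with samples of the groups overlapping.

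The P56-NPC suspension was higher than each other group for every member. All 9 were tested and called higher than in AST (39.1% of all genes tested called higher and 39.8% lower; 31.2% and 51.6% with scaling to library size alone), with a median log2 difference of 8.07 against -0.03 over all genes tested. All 9 were called higher than in P0-NPC (39.7% higher and 39.0% lower; 22.3% and 61.2% with that scaling), with a median of 6.53 against 0.01. A-iSC was lower than P56-NPC for all 9 (30.9% lower and 30.1% higher; 19.2% and 55.9% with that scaling), with a median of -6.62 against 0.03. These members passed the filter through their P56-NPC level, so the counts describe the groups and are no support on their own. The log2 differences from AST ran from 5.08 ± 0.0886 for Cnp to 11.99 ± 0.0786 for Mbp, and all adjusted p-values were at or below 2.14e-08.

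Markers of other cell types moved between P56-NPC and AST in both directions. The summed level of 8 astrocyte markers was 2834 to 3072 FPKM in P56-NPC and 143 to 161 in AST, with 8 of 8 called higher. For 8 microglia markers the sums were 618 to 657 and 143 to 161, with 7 of 7 tested called higher. For 6 ependymal markers they were 264 to 358 and 42.8 to 51.2, with 6 of 6 called higher. For 8 neuron markers they were 220.4 to 265 and 88.2 to 124, with 7 called higher and 1 lower. Of 8 meningeal fibroblast markers 6 were tested, with 1 called higher and 5 lower, and their sums were 8.32 to 14.8 and 177 to 225. Of 8 neural precursor markers 2 were called higher and 4 lower, and of 3 endothelial markers tested 1 and 2. Of those called higher, 5 neuron, 3 ependymal, 1 microglia, 1 meningeal fibroblast, 1 neural precursor and 1 endothelial marker passed the filter through P56-NPC alone. Of those called lower, 3 meningeal fibroblast and 2 endothelial markers passed it through AST alone. These counts are descriptions, beside 39.1% of all genes tested called higher and 39.8% lower. The part of these markers in the myelin gene differences, and that of the mitochondrial share given above, was not tested.

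The distance between A-iSC and P56-NPC was not the same for all members. The A-iSC level was 8.71% of the P56-NPC level for Cnp, 1.14% for Bcas1 and 0.929% for Cldn11. It was 0.182% for Mag, 0.180% for Fa2h, 0.106% for Ermn and 0.0802% for Mbp. It was 0.0373% for Mog and 0.0018% for Mobp. The genes of compact myelin and the outer surface were thus the farthest from P56-NPC, and Cnp, Bcas1 and Cldn11 the nearest. The P0-NPC level ran from 0.000585% of P56-NPC for Mobp to 1.77% for Cldn11, with Cnp at 1.64% and Mog at 1.08%.

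**Figure D4:**
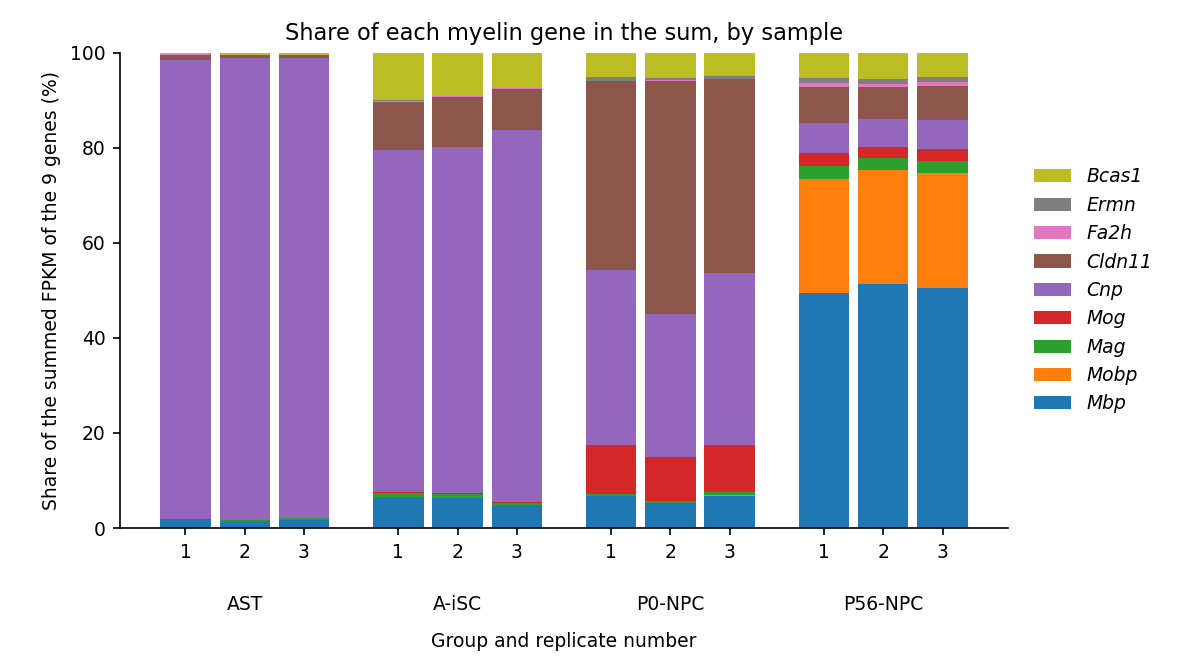
Share of each myelin gene in the summed FPKM of the 9 genes, in percent, as stacked bars for each of 12 samples. Cnp fills most of the bar in AST and A-iSC, Cldn11 and Cnp share it in P0-NPC, and Mbp and Mobp fill most of it in P56-NPC.

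The make-up of the myelin gene set differed between groups. Cnp took 96.8% ± 0.254 of the summed FPKM in AST (SD, n = 3), 74.4% ± 3.47 in A-iSC, 34.4% ± 3.72 in P0-NPC and 6.02% ± 0.261 in P56-NPC. Mbp took 1.63% ± 0.121 in AST, 5.88% ± 0.907 in A-iSC, 6.23% ± 0.884 in P0-NPC and 50.5% ± 0.993 in P56-NPC. Mobp took 24.0% ± 0.131 in P56-NPC and under 0.1% in each sample of the other groups. Cldn11 led in P0-NPC with 43.2% ± 5.00, compared with 9.64% ± 0.992 in A-iSC and 7.20% ± 0.490 in P56-NPC. With Mbp left out of the sum, the order of the latter groups reversed, with Cldn11 at 10.25% ± 1.14 in A-iSC and 14.52% ± 0.7 in P56-NPC. Mog took 9.72% ± 0.467 in P0-NPC and 2.60% ± 0.190 in P56-NPC. Bcas1 took 8.79% ± 1.38 in A-iSC and 5.32% ± 0.179 in P56-NPC. This order depended on Mbp being in the sum. With Mbp left out, Bcas1 took 9.35% ± 1.55 in A-iSC and 10.74% ± 0.546 in P56-NPC (exact permutation p = 0.3). With 3 samples against 3, the exact two-sided permutation test cannot go below p = 0.1, and most of these contrasts reached that value. The Mbp share did not separate A-iSC from P0-NPC (exact p = 0.5). With Cldn11 left out of the sum it did, at 5.28% to 7.20% in A-iSC and 10.21% to 11.53% in P0-NPC.

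Other genes of the pathway, listed by their known roles, were examined beside the members. As for the members, a gene under 1 FPKM in one group was tested only through the group where it was higher, so the counts below are descriptions, and the number of such genes is given with them. Of 20 other myelin and mature oligodendrocyte genes, 11 were tested between A-iSC and AST, with 8 called higher and 3 lower, beside 25.2% and 29.6% of all genes tested (3 of the 8 and 2 of the 3 through the higher group alone), and a median log2 difference of 0.83 against -0.06 over all genes. Trf, the iron carrier transferrin, rose from 7.71 ± 0.998 FPKM in AST to 143 ± 15.7 in A-iSC (adjusted p = 3.54e-06), 31.7% of its P56-NPC level. Over the 20 genes the A-iSC level had a median of 1.33% of the P56-NPC level and ran from 0.0647% to 36.5%, so Trf was near the top. The 3 genes that fell were Tspan2, a tetraspanin (-1.40 ± 0.141, adjusted p = 0.000169), Adamts4, a secreted protease (-0.86 ± 0.280, adjusted p = 0.0349), and Anln (-2.94 ± 0.154, adjusted p = 1.01e-05), an actin-binding protein also needed for cell division. All 20 were called higher in P56-NPC than in AST, 12 of them through P56-NPC alone, where 39.1% of all genes tested were. Of 10 tested between P0-NPC and AST, 4 were higher and 4 lower (2 and 1 through the higher group alone), beside 38.1% and 40.9% of all genes tested. Cntn2 was the 1 gene of the 20 called lower in P56-NPC than in P0-NPC, and it is a contactin that neurons use on growing axons as well.

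Of 8 enzymes of myelin lipid synthesis 7 were tested between A-iSC and AST, with 1 called higher, through A-iSC alone, and 4 lower, beside the same 25.2% and 29.6% of all genes tested. The 1 that rose was Ugt8a, which makes galactosylceramide, at 0.156 ± 0.0319 FPKM in AST and 1.12 ± 0.347 in A-iSC (adjusted p = 0.00201). Cers2, a ceramide synthase for very long chains, fell from 59.1 ± 3.08 to 40.5 ± 6.89 FPKM (adjusted p = 0.0169). In P0-NPC 6 were tested against AST, and all 6 were called lower, 2 through AST alone (40.9% of all genes tested). In P56-NPC 5 of 8 were called higher than in AST, 2 through P56-NPC alone, and 3 lower (39.1% and 39.8%).

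The median level of 10 transcription factors of the oligodendrocyte lineage was 25.8% of P56-NPC in A-iSC, 24.0% in AST and 10.3% in P0-NPC. For the 9 members these medians were 0.180%, 0.0082% and 0.167%. The single genes of both lists overlapped in this measure, which was not tested: the factors ran from 0.687% to 98.5% in A-iSC, from 0 to 79.5% in AST and from 0.0396% to 41.1% in P0-NPC, and Cnp reached 8.71%, 2.79% and 1.64%. Of 7 factors tested between A-iSC and AST, 2 were called higher (1 through A-iSC alone) and 0 lower, beside 25.2% and 29.6% of all genes tested. One was Olig2, a factor of the whole lineage (0.41 ± 0.113, adjusted p = 0.0178). The other was Sox10, which is known to act on myelin gene promoters and rose from 0.0782, 0.388 and 0.371 FPKM in AST to 12.3, 12.4 and 8.83 in A-iSC (3.25 ± 0.169, adjusted p = 1.01e-05). Sox10 in P56-NPC stood at 72.5, 78.8 and 66.0 FPKM. Myrf, the factor that cells need to enter the myelinating stage, stood at 0.174, 0.196 and 0.340 FPKM in AST and at 0.185, 0.226 and 0.288 in A-iSC. It was at 33.3, 32.9 and 35.6 FPKM in P56-NPC. AST and A-iSC samples overlapped for Myrf, and A-iSC stood at 0.687% of P56-NPC. Sox10 and Myrf were singled out after their values were seen.

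Of 10 genes of the precursor and committed stages, 8 were tested between A-iSC and AST, with 4 called higher in A-iSC (3 through A-iSC alone) and 3 lower (1 through AST alone), beside 25.2% and 29.6% of all genes tested. Those that rose were C1ql1 (4.01 ± 0.173, adjusted p = 5.89e-06), Lhfpl3 (2.99 ± 0.101, adjusted p = 3.54e-06), Pdgfra, the growth factor receptor of precursors (2.22 ± 0.166, adjusted p = 4.12e-05), and Gpr17, a receptor of the committed stage (1.45 ± 0.197, adjusted p = 0.000724). Those that fell were Bmp4 (-3.18 ± 0.126), Tns3 (-0.66 ± 0.138) and Cspg4 (-0.43 ± 0.121), with adjusted p-values of 4.90e-06, 0.00570 and 0.0203. C1ql1 in A-iSC stood at 475% of its P56-NPC level. In P0-NPC Pdgfra was higher than in A-iSC (A-iSC minus P0-NPC -0.54 ± 0.163, adjusted p = 0.0195). Pdgfra was named after its values were seen.

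**Figure D5:**
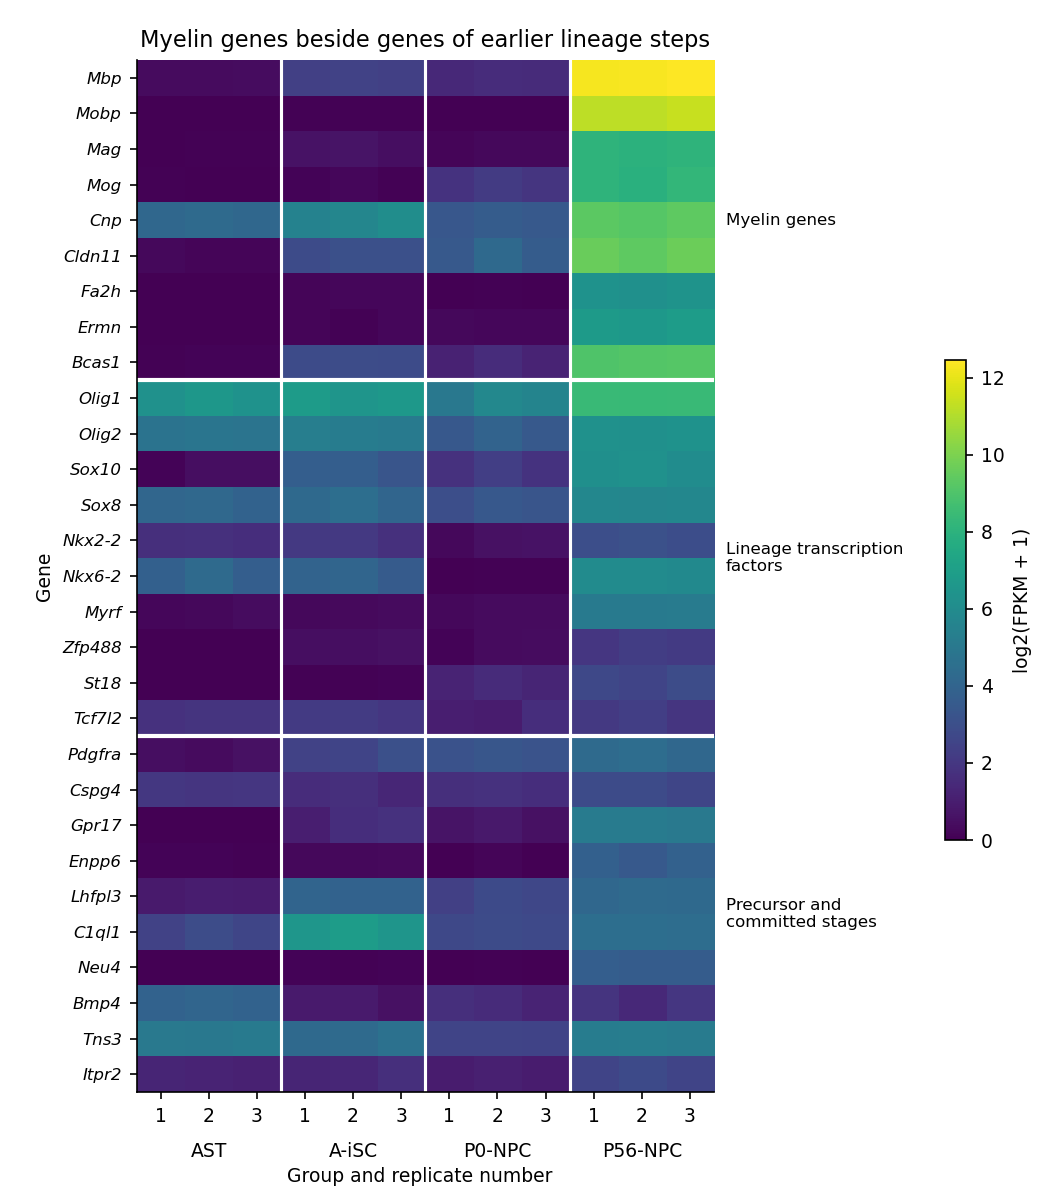
log2(FPKM + 1) in each of 12 samples (columns, 3 per group) for the 9 myelin genes, 10 lineage transcription factors and 10 genes of precursor and committed stages (rows). Myelin genes are bright in the P56-NPC columns, while several transcription factors, Olig1, Olig2 and Sox8 among them, are at a middle level in all 4 groups.

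Of 7 genes of peripheral myelin, 3 were tested between A-iSC and AST, with 1 called higher, through A-iSC alone, and 2 lower, 1 of them through AST alone, beside 25.2% and 29.6% of all genes tested. The 1 that rose was Drp2, a dystrophin-related protein, at 0.778 ± 0.0643 FPKM in AST and 1.79 ± 0.293 in A-iSC (0.65 ± 0.1204, adjusted p = 0.00325). Drp2 was also called higher than in AST in P56-NPC (1.93 ± 0.0766, adjusted p = 5.76e-07) and in P0-NPC (1.67 ± 0.121, adjusted p = 5.95e-06). Those that fell in A-iSC were Prx (-1.17 ± 0.138, adjusted p = 0.000375), a scaffold protein of Schwann cells, and Pmp22 (-0.45 ± 0.136, adjusted p = 0.0267). Egr2, which was singled out after its values were seen, had no fragment in any sample. Pmp22, which many cell types use, made up most of the summed level of 40.6 to 46.4 FPKM in P56-NPC and 47.4 to 57.9 in A-iSC. Of 8 genes of the node and axon that partner myelin, 6 were tested between A-iSC and AST, with 3 called higher (2 through A-iSC alone) and 1 lower (through AST alone), beside the same shares. All 8 were called higher in P56-NPC than in AST, 5 of them through P56-NPC alone, where 39.1% of all genes tested were.

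Likeness of other genes to each member over the 12 samples was the Pearson r of log2(FPKM + 1), among 13633 genes. The genes named for Mbp include Ugt8a (r = 0.9987) and Lgi3 (r = 0.9985). For Mobp, Mag and Fa2h the leading genes came from a common group of Opalin, Tmem125, Neu4, Tmem88b and Cyp2j12, and for Ermn they were Hapln2, Gjb1 and Cyp2j12. Bcas1 was most like Gpr17 (r = 0.996), Stac2 and Plekhm2. Mog was most like Faim2, Klhl4 and Hpcal4, 3 genes with P0-NPC means of 0.970 to 2.50 FPKM, and Cldn11 was most like Ust, Adap1 and Tef. Cnp, with Gramd3, Acsl3 and Cdh19, had the fewest close genes, 13 with r above 0.99, against 109 for Fa2h and for Ermn. Among the members r ran from 0.84 between Mog and Cnp to over 0.999 between Mobp and Fa2h. The 12 samples form 4 groups and the P56-NPC group is far from the rest, so these values describe the group pattern and carry no test.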

How the data were processed

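RNA sequencing libraries of 12 mouse samples (4 groups of 3) were sequenced as paired ends. The authors deposited FPKM values per gene with gene positions and lengths. The submitters' processing notes name Bowtie 0.12.2 and build mm8, but 54985 of the 55240 gene identifiers shared with GENCODE M21 have its GRCm38 positions, which are used here. The counting tool and its strand setting are not given in the sources used here. FPKM multiplied by gene length gave whole fragments for all values above 0 (tolerance 0.05), so depth was known; each library was scaled by the authors to 0.744 to 1.218 times its fragments. Groups came from the sample labels.

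Groups were compared 2 at a time with limma 3.58.1 (R 4.3.3, empirical Bayes with trend) on log2(FPKM + 1), for genes with a mean of at least 1 FPKM in either group, with two-sided p-values adjusted by Benjamini-Hochberg over all genes tested and called under 0.05. The study's own differential test works on counts and was not run here. Fold changes are ratios of mean FPKM, with exact counting intervals of 95% where a group had few fragments. Where the lower group had 1 fragment in all, its mean was replaced by its pooled level, its fragments over the summed depth of its samples. Where it had none, a floor of 3 fragments per library took the place of its mean. The fit was tested on simulated data. The members and the lists of other genes and cell type markers were chosen with earlier results of these data known. Genes to name were, from each list, at most 4 of highest mean FPKM and those called against most of the list, and for each member the 3 of highest r; not all of them are reported here. Pdgfra, Sox10, Myrf and Egr2 lie outside this rule. Sequences came from RefSeq (GRCm38.p6), where 6 of the 9 members were found, without Mbp, Fa2h and Bcas1. Alternatives were other scalings, filters and pseudocounts, a model of all groups, a replicate block, limma-voom on the recovered fragments, and leaving out each sample.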

Additional observations from a re-analysis of the deposited data

How the results depend on the processing

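The 41 member differences tested kept their direction and their call in all 568 refits (scaling to library size alone or to the upper quartile, no filter, a filter at 5 FPKM, a pseudocount of 0.1, all 4 groups in the model, a replicate block, limma-voom and each sample left out). Counts of members called moved with the filter, since the filter sets how many are tested. With no filter 8 members instead of 4 were called between A-iSC and AST, all higher, and Mog alone did not pass (adjusted p = 0.110), and 7 instead of 5 were called in P0-NPC against AST and in A-iSC against P0-NPC. At 5 FPKM, 3 instead of 4 were called between A-iSC and AST, 2 instead of 5 were called between P0-NPC and AST, and 3 instead of 5 between A-iSC and P0-NPC. Leaving out each sample in turn left the counts of members called as they were in all 6 comparisons, at 4 between A-iSC and AST, 5 where P0-NPC was compared with AST or A-iSC, and 9 where P56-NPC took part. Sizes depended on the pseudocount: Bcas1 between A-iSC and AST was 2.77 on the log2(FPKM + 1) scale, 5.24 with a pseudocount of 0.1 and 6.37 with limma-voom. Scaling to library size alone moved the median of all genes from -0.06 to 0.13 for A-iSC against AST, to -0.34 for P56-NPC against AST, to 0.21 for P0-NPC against AST, to 0.50 for A-iSC against P56-NPC and to -0.53 for P56-NPC against P0-NPC. Cnp between P0-NPC and AST was then -0.45 instead of -0.72. Correlations of same-numbered samples were -0.422, 0.372 and 0.483 for A-iSC and AST, and -0.164 to 0.121 otherwise. They differ in sign, and with 3 samples per group they cannot settle whether the replicate numbers pair the samples. With the replicate block 4 members were called between A-iSC and AST, as without it, and no other count of members changed. The leading share of the summed FPKM moved with the sum: without Mbp it was 98.4% (Cnp) in AST, 79.1% (Cnp) in A-iSC and 48.5% (Mobp) in P56-NPC, and without Cldn11 it was 97.6%, 82.4% and 54.4% (Cnp, Cnp and Mbp), and 60.6% (Cnp) in P0-NPC.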
